A study of Homo sapiens with 9 samples.

Results

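The genes described here are 35 genes of the NF-kB pathway and the secreted factors it is known to control, taken as a fixed list of symbols and matched to the Ensembl gene IDs of the deposited tables. They comprise 5 NF-kB subunits, 5 feedback inhibitors, adaptors and survival genes, 7 CXC and 3 CC chemokines, 3 genes of the IL-1 and TNF families, 3 of the IL-6 family, 2 other interleukins, 3 colony stimulating factors, and 4 genes for an adhesion molecule and enzymes. All 35 were found in at least 5 tables, and 34 were among the 26636 genes listed in all 9 tables. CXCL10 was listed in 5 tables only. Of the 34, 26 had a mean of at least 1 FPKM (a count of fragments divided by transcript length and by library size) and entered the test, and 8 did not (TRAF1, IL1A, IL1B, IL11, IL24, IL32, CSF2 and CSF3).

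The libraries are labelled as BT549, an established line from a human triple-negative breast cancer, known for its mesenchymal-like form. Cells received a control siRNA (siNC, 3 libraries) or siWFDC21P-1 or siWFDC21P-2 (3 libraries each), both directed against the pseudogene transcript WFDC21P, and RNA was taken after 48 h. By the labels all groups shared the line, the medium and the transfection (5 µl of a 10 µM siRNA stock), but the expression values below leave it unknown whether all 9 libraries are of the same line. The label for genotype is wild type for siNC and WFDC21P knockdown for the others. Nothing says that replicates came from separate cultures, so p-values measure only the spread between these libraries.

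NF-kB is a family of dimeric transcription factors. In resting cells the dimers are held in the cytoplasm by IkB proteins, of which NFKBIA encodes IkB-alpha. Signals from IL-1, TNF or Toll-like receptors activate the IKK kinase complex, IkB is degraded, and the dimers move to the nucleus and switch on their targets. Some targets (NFKBIA and TNFAIP3, also called A20) shut the pathway off again, and others encode secreted signals, among them CXCL8, IL6 and LIF, which many mesenchymal-like breast cancer lines release.

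The libraries fell into 3 expression backgrounds that cut across the siRNA groups. Clustering on genes other than those described here gave background 1 (siNC replicate 1, siWFDC21P-1 replicates 1 and 2), background 2 (siNC replicate 2, siWFDC21P-1 replicate 3) and background 3 (siNC replicate 3 and the 3 siWFDC21P-2 libraries). Each holds a single siNC library. Pearson r of log2 values was 0.928 to 0.986 within backgrounds and 0.663 to 0.746 between them. The 5 epithelial markers summed to 174 to 383 FPKM in background 1 (KRT8 and KRT18 only, with EPCAM at 0.0412 or less), to 951 and 1560 in background 2 (with EPCAM at 209 and 228) and to 6.49 to 10.04 in background 3. The 5 mesenchymal markers summed to 47.7 to 52.8, to 6.63 and 12.6, and to 275 to 392 FPKM in these backgrounds. Of them VIM, CDH2, ZEB1 and SPARC were highest in background 3, CDH2 was at 0.00698 or less in backgrounds 1 and 2, and FN1 overlapped between backgrounds 2 and 3. Both backgrounds 1 and 2 thus went against the mesenchymal form of the labelled line in some of these markers. The denominators of the FPKM values were 28108099 to 29669372 reads in backgrounds 1 and 2 and 16298982 to 17393687 in background 3. Library names held hyphens in backgrounds 1 and 2 but not in background 3 (the naming style). Genes listed in every table of a style numbered 34377 with hyphens and 29104 without. Naming style, listed genes and depth thus go with background 3 and cannot be told apart from it. The target WFDC21P was at 2.04% and 24.9% of its siNC library in background 1, at 176% on 4 and 7 reads in background 2, and at 60.2%, 48.3% and 30.8% in background 3. A lower target is therefore not shown in the library labelled siWFDC21P-1 replicate 3. WFDC21P passed for neither siRNA (log2 fold change -0.85 ± 0.42, limma adjusted p = 0.422, and -0.94 ± 0.52, limma adjusted p = 0.756). Of 8 leukocyte markers, 6 were listed in all tables, with sums of 1.14 to 4.30 FPKM in background 1, 30.2 and 36.4 in background 2 and 1.39 to 8.905 in background 3. CD14 gave 29.6 and 36.1 FPKM of this in background 2, whereas PTPRC (CD45) was at 0.160 FPKM or less in every library.

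Of the CXC chemokine genes of the list, 6 lie near each other on chromosome 4 (hg38), with gaps between them. In order come CXCL8 (73740506 to 73743716, plus strand), CXCL6 (73836497 to 73849064, plus) and CXCL1 (73869393 to 73871242, plus). After them come CXCL5 (73995642 to 73998779, minus), CXCL3 (74036589 to 74038807, minus) and CXCL2 (74097035 to 74099293, minus). IL6 lies on chromosome 7 (22725884 to 22732002, plus). Stretches with letters of an NF-kB motif in front of these genes are shown, and the choice of genes is given after them. RefSeq promoter windows (GRCh38.p14, 250 bases before to 50 after a start) were given for 28 of the 35 genes. The windows were searched on both strands for the degenerate kB consensus, for GGAATTTCC, which overlaps that consensus, and for the AP-1 letters TGANTCA. The stretches below run 5′ to 3′ on the strand of the gene, with the match in capitals.
CXCL1 (chr4:73869289-73869348, plus): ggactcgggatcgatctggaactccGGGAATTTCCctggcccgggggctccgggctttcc
CXCL2 (chr4:74099239-74099298, minus): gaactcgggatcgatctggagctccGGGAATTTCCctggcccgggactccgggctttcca
CXCL3 (chr4:74038734-74038793, minus): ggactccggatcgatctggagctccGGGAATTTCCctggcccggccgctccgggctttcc
CXCL5 (chr4:73998734-73998793, minus): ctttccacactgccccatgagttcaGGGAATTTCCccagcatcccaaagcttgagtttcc
CXCL6 (chr4:73836563-73836622, plus): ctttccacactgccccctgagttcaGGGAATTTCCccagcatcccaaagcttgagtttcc
CXCL8 (chr4:73740453-73740511, plus): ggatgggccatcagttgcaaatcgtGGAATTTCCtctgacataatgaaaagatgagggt
IL6 (chr7:22727102-22727161, plus): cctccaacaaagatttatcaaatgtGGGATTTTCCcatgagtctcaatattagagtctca

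The first base of the match stood 73 to 91 bases before the annotated start in these 7 genes. CXCL1 and CXCL3 shared 56 of 60 bases of the stretch, and CXCL5 and CXCL6 shared 59 of 60. CXCL8 held GGAATTTCC but not the full consensus. It was added to the 6 genes chosen by rule (the secreted factors with the highest levels among those with the consensus). The 28 genes had 39 windows, of which 16 (41.0%) held the consensus, against 11.3% of all 35116 windows, and 11 (28.2%) held GGAATTTCC, against 0.461%. The 16 windows belonged to 15 genes. These 15 included NFKBIA, TNFAIP3, NFKB1, NFKB2, REL and BIRC3, and ICAM1 held GGAATTTCC alone. TGANTCA stood in windows of CXCL8 (137 bases before the start), IL1A and IL11, in 4 of the 39 windows (10.3%), against 7.71% of all windows. A match describes the letters and is not shown to be bound.

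**Figure D1:**
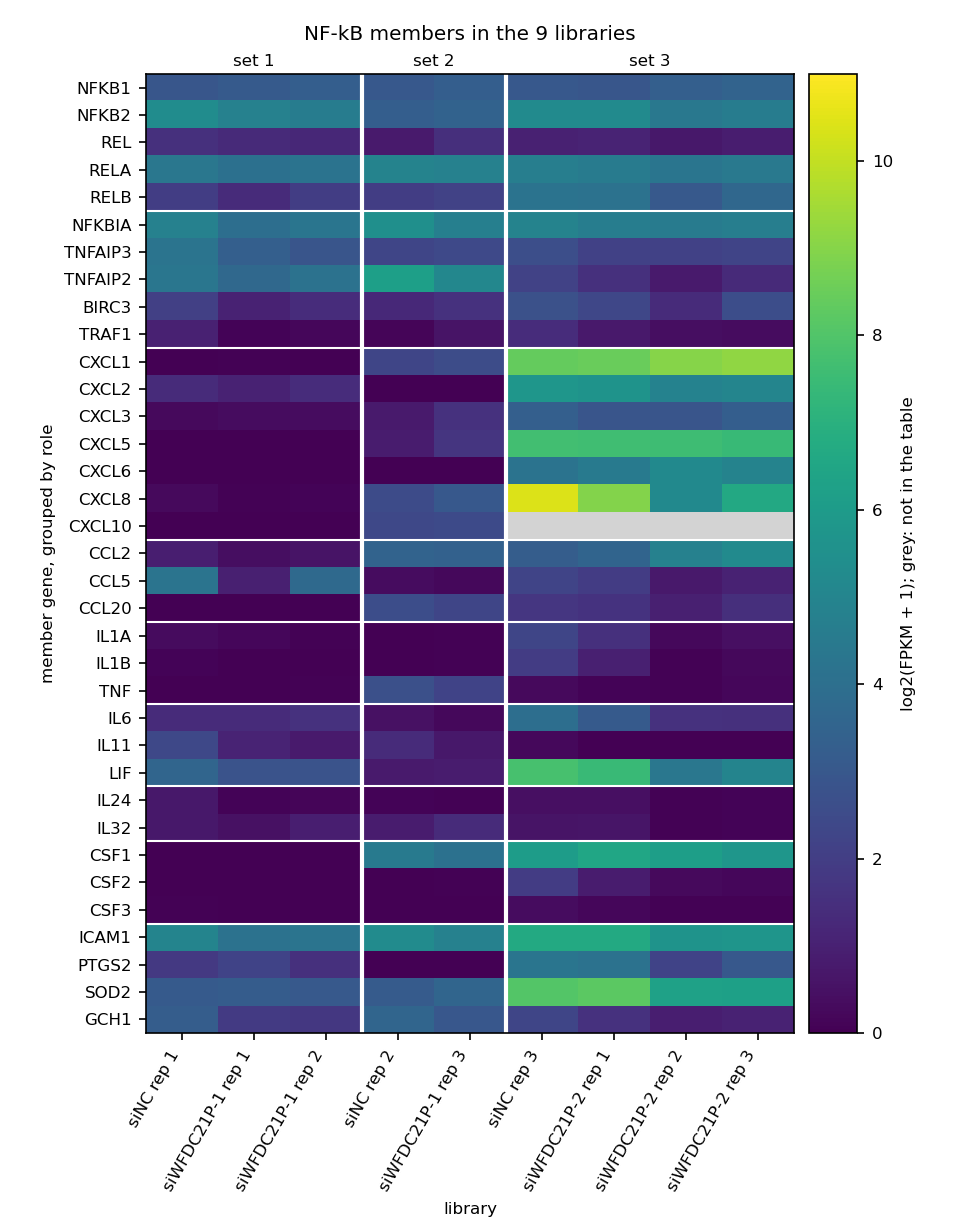
Each row is a gene of the list, grouped by role, each column is a library, ordered by background (set 1 to 3), and the colour gives log2(FPKM + 1), with grey where the table does not list the gene. The CXC chemokines, LIF and SOD2 are bright in the 4 libraries of set 3, where CXCL8 reaches 1372 FPKM, and dark in set 1.

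The secreted factors differed in kind between the backgrounds. Since the backgrounds were found by clustering these libraries, the differences are described without a test. Summed over the 20 secreted factors listed in all tables, the level was 12.04 to 39.5 FPKM in background 1, 53.1 to 57.1 in background 2 and 924 to 2327 in background 3. Of the 26 genes tested, 12 were higher in every library of background 3 than in all others (15.1% of all tested genes had this pattern), 4 in background 2 (19.1%) and 1 in background 1 (14.1%). Several passed the filter only through background 3, so these counts describe the list and support nothing further.

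Background 3 carried the neutrophil-attracting chemokines. CXCL8, the chief neutrophil attractant of the CXC family, was at 1372 FPKM in siNC replicate 3, at 4.66 in siNC replicate 2 and at 0.226 in siNC replicate 1. CXCL1, which signals through the same receptor CXCR2, was at 338, 3.98 and 0 FPKM in these 3 libraries. CXCL5 was at 204, 0.794 and 0 FPKM. CXCL6 was at 17.5 FPKM in siNC replicate 3 and had no read in any of the 5 libraries of backgrounds 1 and 2, which allows at most 0.0463 to 0.0489 FPKM (3 reads, counting error only). The pairs CXCL5 and CXCL6, and CXCL1, CXCL2 and CXCL3, are close paralogs that can share reads, so the split within them is uncertain. Also highest in background 3 were LIF, a cytokine of the IL-6 family (224 FPKM in its siNC library against 11.1 and 0.748 in siNC replicates 1 and 2), CSF1, the macrophage growth factor (67.0 against 0.0189 and 22.2), and SOD2, the mitochondrial superoxide dismutase (265 against 7.77 and 7.97).

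Background 2, the background with high CD14, had another profile at lower levels, and the part of CD14-bearing cells in it was not tested. TNF, the founding cytokine of its family, was at 5.48 and 3.61 FPKM there and at 0.220 or less in the other 7 libraries. CXCL10, an interferon-induced chemokine, was at 4.24 and 4.54 FPKM in background 2 and had no read in the 3 libraries of background 1. The tables of background 3 did not list it. CCL20, which attracts cells bearing CCR6, was at 5.00 and 3.89 FPKM in background 2, at 0.979 to 2.38 in background 3, and without a read in background 1. TNFAIP2, a TNF-induced gene, was at 73.0 and 32.8 FPKM in background 2, at 12.1 to 18.8 in background 1 and at 0.725 to 3.56 in background 3. PTGS2 (cyclooxygenase 2) had no read in background 2.

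Background 1 was poor in chemokines apart from CCL5, which attracts T cells and monocytes and stood at 18, 0.960 and 12.6 FPKM in siNC replicate 1 and siWFDC21P-1 replicates 1 and 2. The second of these libraries thus lacked most of the CCL5 RNA of the others. IL11, an IL-6 family cytokine, was at 4.24, 1.15 and 0.757 FPKM in these libraries, at 1.55 and 0.639 in background 2, which overlaps, and at 0.161 or less in background 3. TNFAIP3 was the gene highest in background 1, at 17.9, 8.93 and 6.42 FPKM.

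The subunits themselves were more even. RELA, the main transactivating subunit, was at 15.6 to 28.9 FPKM over all 9 libraries, and NFKB1, the precursor of p50, at 6.596 to 10.4. NFKBIA ranged from 14.9 to 44.2 FPKM. RELB, of the non-canonical pathway, was at 7.52 to 17.2 FPKM in background 3 and at 1.56 to 3.53 elsewhere. NFKB2, the precursor of p52, was at 8.63 and 9.90 FPKM in background 2 and at 20.1 to 39.7 in the others. REL was the lowest subunit, at 0.642 to 1.86 FPKM. The survival gene BIRC3 (1.09 to 5.71 FPKM), TRAF1 (0.0858 to 1.61) and GCH1 (0.911 to 11.1) were highest in no single background, nor were IL32 (0.0372 to 1.55) and IL24 (0.0539 to 0.657). IL1A and IL1B reached 3.90 and 2.87 FPKM in siNC replicate 3 and at most 0.258 and 0.0663 outside background 3. CSF2 and CSF3, the growth factors of granulocytes and macrophages, had at most 1 and 3 reads in any library outside background 3.

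**Figure D2:**
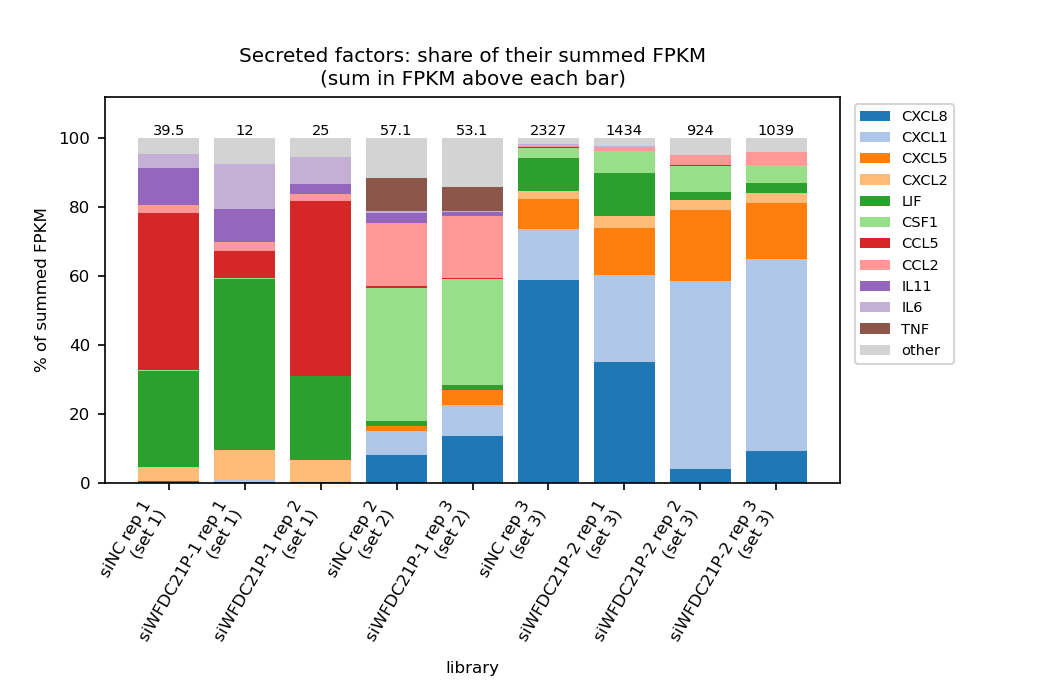
Bars give the share of each of 11 secreted factors, and of the other 9 together, in the summed FPKM of the 20 secreted factors listed in all tables, with the sum above each bar and the library and its background (set) below. CXCL8 fills 58.95% of the bar of siNC replicate 3 and 3.92% of that of siWFDC21P-2 replicate 2, while CXCL1 goes from 14.5% to 54.6%.

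With siWFDC21P-2, the readings of CXCL8, IL6, LIF and the IL-1 genes were below those of siNC replicate 3 in all 3 libraries, while those of CXCL1, CXCL6 and CCL2 were above. No gene of the list passed over all 3 libraries (limma on log2(FPKM + 1) with the background as a term, Benjamini-Hochberg adjusted over 13014 genes; adjusted p of 0.756 or more for all 26), and 0 of the 13014 genes passed (0.00%). Before adjustment, 5 genes of the list and 682 of all had a p under 0.05. Replicates 2 and 3 stood farther from the control than replicate 1 in most genes, and this spread enters the test. All 3 libraries lay below the control in 18 of the 26 genes, against 26.0% of all tested genes, and above it in 3, against 26.9%. The median log2 fold change was -0.47 over the 26 genes and 0.02 over all tested genes.

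CXCL8 (ENSG00000169429) was at 1372 FPKM in siNC library 3 versus 502, 36.2 and 97.4 FPKM in siWFDC21P-2 replicates 1, 2 and 3. All 3 libraries were lower, and replicates 2 and 3 far more so than replicate 1, at 2.64% (95% counting interval 2.50 to 2.79%) and 7.10% (6.87 to 7.34%) of the control. The mean was 212 ± 253 FPKM (SD, n = 3), and the fitted log2 fold change was -3.49 ± 1.16 (SE; limma adjusted p = 0.756). CXCL6 (ENSG00000124875), the next gene of the list on chromosome 4, read 17.5 FPKM in the control, against 21.5, 36.4 and 29.4 in the siWFDC21P-2 libraries. Its mean was 29.1 ± 7.45 FPKM (SD, n = 3), with a log2 fold change of 0.67 ± 0.28 (limma adjusted p = 0.756). CXCL1 (ENSG00000163739), which follows in the list order, read 338 FPKM and then 362, 505 and 577. CXCL5 read 204 FPKM in the control, against 198, 190 and 168 in the siWFDC21P-2 libraries, 82.3 to 96.9% of the control. CXCL2 was at 54.4 FPKM in the control, against 48.6, 28.4 and 31.0 with siWFDC21P-2, and CXCL3 at 8.99 and at 6.55, 6.46 and 8.63. Within this cluster the readings thus ranged, in replicate 2, from 2.64% of the control (CXCL8) to 208% (CXCL6). Because CXCL8 was so much lower, CXCL1 was the leading secreted factor by FPKM in replicates 2 and 3, and the sum without CXCL8 was 955 FPKM in the control, against 932, 888 and 942 in the siWFDC21P-2 libraries.

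The cytokines of the IL-6 and IL-1 families read lower. IL6 (ENSG00000136244), an activator of STAT3, was at 14.9 FPKM in the control, against 7.59, 1.94 and 1.86 with siWFDC21P-2 (log2 fold change -1.94 ± 0.58, limma adjusted p = 0.756). LIF was at 224 FPKM and then at 177, 19.6 and 30.3, or 78.8%, 8.72% and 13.5% of the control. IL1A, which can itself activate NF-kB through the IL-1 receptor, had 135 reads in the control, against 71, 6 and 13 in the siWFDC21P-2 libraries. IL1B had 145 reads and then 50, 2 and 10. For both IL-1 genes replicate 1 lay between the control and the other libraries. CSF2 (GM-CSF) had 37 reads in the control, against 11, 3 and 2 with siWFDC21P-2, and IL32 had 27 and then 29, 2 and 5. IL24 and CSF3 had 12 and 10 reads in the control, against 2 to 12 in the siWFDC21P-2 libraries, and IL11 had 7 and at most 1, so that little can be read from their changes at this depth.

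Of the other chemokines, CCL2, which attracts monocytes, was at 8.53 FPKM in the control, against 10.7, 27.1 and 37.4 in the siWFDC21P-2 libraries, up to 439% of the control (385 to 502%). CCL5 was at 3.73 FPKM and then at 2.85, 0.672 and 1.08. CCL20 had 52 control reads, against 48, 22 and 41 with siWFDC21P-2. TNF is among the 18 genes counted as below, on 6 reads in the control and 2, 1 and 4 with siWFDC21P-2. CSF1 was at 67.0 FPKM in the control, against 91.0, 71.3 and 54.2, on both sides of it.

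Among the effectors, GCH1, which makes the cofactor tetrahydrobiopterin, was at 3.91 FPKM in the control, against 1.97, 0.911 and 1.10 with siWFDC21P-2 (log2 fold change -1.10 ± 0.32, limma adjusted p = 0.756). SOD2 (ENSG00000112096, a gene model that overlaps a second model of the same name) was at 265 FPKM and then at 297, 77.4 and 76.2, so that replicate 1 was above the control and the others below. ICAM1, the adhesion molecule that binds leukocyte integrins, was at 103 FPKM in the control, against 102, 48.5 and 52.8. PTGS2 was at 18.3 FPKM and then at 16.6, 3.69 and 7.07. TNFAIP2 was at 3.56 FPKM in the control, against 1.85, 0.725 and 1.46 (log2 fold change -0.99 ± 0.36, limma adjusted p = 0.756). TRAF1, an adaptor of TNF receptors, had 169 reads in the control, against 77, 35 and 32 with siWFDC21P-2. The feedback inhibitors moved less, with NFKBIA at 77.0 to 84.7% of the control and TNFAIP3 at 64.6 to 72.3%. RELA was at 71.8 to 89.7% of the control in the 3 libraries, and NFKB1 at 94.2, 125 and 145%. RELB was at 97.3, 43.6 and 67.6%, NFKB2 at 102, 53.9 and 63.1%, REL at 108, 61.7 and 81.9% and BIRC3 at 72.6, 27.3 and 87.9%, each lowest in replicate 2.

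**Figure D3:**
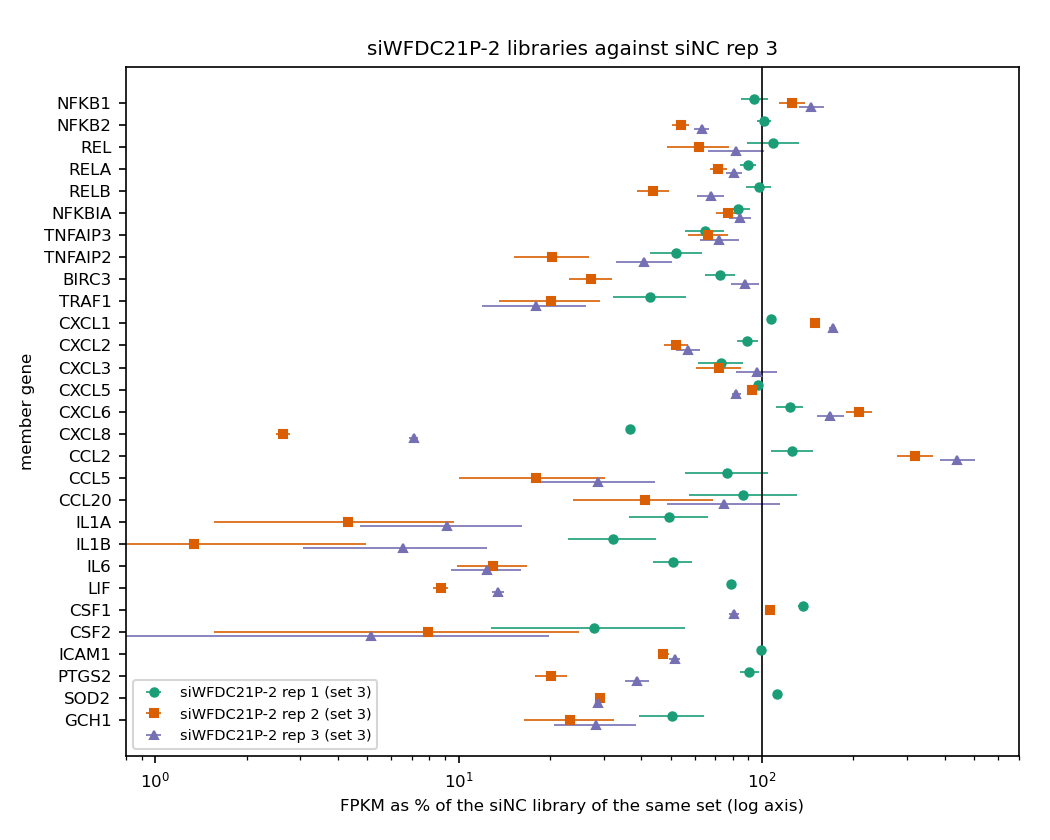
Points give the FPKM of siWFDC21P-2 replicates 1 to 3 as a percentage of siNC replicate 3, on a log axis, for the 29 genes of the list with at least 1 FPKM in that control, and bars are 95% intervals that cover counting error only (none for SOD2, whose reads were not recovered). Replicates 2 and 3 put CXCL8, LIF, IL6, IL1A and IL1B below 14% of the control and CCL2 above 300%, whereas replicate 1 stays nearer to the line at 100%.

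These readings rest on the 1 control library of background 3 and on how far each siWFDC21P-2 library lay from it. With 1 control library, the spread between controls of this background was not measured. The SE and limma p-values pool the spread of the siWFDC21P-2 libraries with that of backgrounds 1 and 2. CXCL6 had no read and CXCL8 was at 7.23 FPKM or less in those 2 backgrounds, so the SE of such genes can be too small. In replicate 1, 1 of the 26 genes was at least 1 log2 unit below the control (0.661% of all tested genes), in replicate 2 there were 11 (4.26%), and in replicate 3 there were 7 (3.71%). At least 1 log2 unit above it lay 2 genes in replicate 2 (5.18%) and 1 in replicate 3 (4.78%). Without replicate 1, 7 of the 26 genes passed (limma, adjusted over 13014 genes), 6 lower and 1 higher, against 6.93% of all tested genes (2.61% lower and 4.32% higher). CXCL8 (log2 fold change -4.50 ± 0.54, adjusted p = 0.0127), LIF (-3.15 ± 0.33, 0.00964), IL6 (-2.46 ± 0.20, 0.00539), SOD2 (-1.77 ± 0.19, 0.00983), GCH1 (-1.29 ± 0.27, 0.0440) and ICAM1 (-1.005 ± 0.18, 0.0298) were then lower by limma, and CCL2 (1.79 ± 0.25, 0.0175) was higher. CXCL6 (0.87 ± 0.20, limma adjusted p = 0.0529) and CXCL1 (0.67 ± 0.18, 0.0727) did not pass. Without replicate 2 or without replicate 3, 0 of the 26 passed. Replicate 1 is the library nearest to the control, so leaving it out favours more calls. The calls without it are therefore a description and no support for a change. WFDC21P was lowest in replicate 3 and CXCL8 in replicate 2. The summed level of 5 fibroblast markers was 104 FPKM in the control, against 135, 394 and 356 in the siWFDC21P-2 libraries, led by THY1 and COL1A2, with DCN at 0.0181 FPKM or less. The 6 leukocyte markers summed to 1.39 FPKM in the control and to 2.14, 7.255 and 8.905 in the siWFDC21P-2 libraries, nearly all of it CD14. The part of either in the readings was not tested. In RNA from whole cultures, fewer cells of a kind and less RNA per cell cannot be told apart.

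With siWFDC21P-1, the feedback inhibitor NFKBIA and the enzyme gene GCH1 read lower in all 3 libraries, in both backgrounds, and neither passed. The sum of the epithelial markers, most of it keratins, read lower in the same libraries. It was 383 FPKM in siNC replicate 1 against 174 and 195, and 1560 against 951 in background 2. KRT8 had a log2 fold change of -1.15 ± 0.18 (limma adjusted p = 0.0893) and KRT18 of -0.82 ± 0.20 (limma adjusted p = 0.17). KRT19 had -0.43 ± 0.24 (limma adjusted p = 0.472). EPCAM (0.07 ± 0.15, limma adjusted p = 0.876) and CDH1 (0.23 ± 0.26, limma adjusted p = 0.734) did not read lower in the fit. Both were at 0.082 FPKM or less in background 1. The part of the markers in the readings was not tested. None of the 26 genes passed (limma adjusted p of 0.143 or more), with 3 of 13014 called among all genes (0.0231%). Before adjustment, 3 genes of the list and 1790 of all had a p under 0.05. All 3 libraries lay below the siNC library of their background in 8 of the 26 genes, against 20.7% of all tested genes, and above it in 2 (NFKB1 and CXCL3), against 27.9%. CSF1 is counted among the 8 although background 1 held 3, 1 and 2 reads of it. The median log2 fold change was -0.15 over the 26 genes and 0.03 over all. With median-of-ratios scaling, 9 of the 26 genes were below in all 3 libraries (25.6% of all tested genes) and 2 above (23.5%). At least 1 log2 unit below the control lay 3 of the 26 genes in replicate 1 (4.15% of all), 2 in replicate 2 (2.47%) and 1 in replicate 3 (1.84%). None of the 26 lay as far above in replicates 1, 2 or 3, against 3.33%, 3.03% and 2.02% of all tested genes. CXCL6 had no read in backgrounds 1 and 2, CXCL5 and CCL20 had none in background 1, and CXCL2 and PTGS2 none in background 2. These genes could lie on neither side in all 3 libraries. CXCL1 had no read in siNC replicate 1 and could not lie below it. The counts and the median therefore describe the list and support nothing further.

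NFKBIA (ENSG00000100906, chromosome 14, 35401511 to 35404749, minus strand) was at 27.2 FPKM in siNC library 1 versus 14.9 and 18.2 in the siWFDC21P-1 libraries of background 1. In background 2 it was at 44.2 FPKM in the control, against 25.8 with the siRNA. The 3 libraries labelled siWFDC21P-1 held 54.9%, 66.8% and 58.5% of their controls (log2 fold change -0.72 ± 0.16, limma adjusted p = 0.143). GCH1 (ENSG00000131979, chromosome 14, 54842008 to 54902852, minus strand) was at 8.35 FPKM and then at 2.65 and 2.42 in background 1, and at 11.1 and 6.84 in background 2 (-1.07 ± 0.26, limma adjusted p = 0.164). ICAM1 was at 30.6 FPKM and then at 16.5 and 17.8, and at 39.1 and 27.7 (-0.66 ± 0.32, limma adjusted p = 0.41). TNFAIP2 was at 18.8 FPKM and then at 12.1 and 16.8, and at 73.0 and 32.8 (-0.70 ± 0.29, limma adjusted p = 0.345). In these 4 genes no siWFDC21P-1 library reached its own control.

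Some genes lay on opposite sides of the control in the 2 backgrounds. This held for 6 of the 26, close to the 22.8% of all tested genes. Genes without a read in background 1 or in background 2 could not have it. All 6 were below in background 1 and above in background 2, a direction that 11.9% of all tested genes had, and LIF (by 0.01 on the log2 scale in background 2) and CXCL8 (on few reads in background 1) are among them. TNFAIP3 was at 49.8% and 35.8% of the control there and at 111% in background 2 (log2 fold change -0.60 ± 0.29, limma adjusted p = 0.412, and 0.12 without siNC replicate 1). BIRC3, an inhibitor of apoptosis, was at 33.9% and 50.6%, and at 144% in background 2. TRAF1 had 193 reads in the control, against 16 and 28 in the siWFDC21P-1 libraries of background 1, against 22 and 86 in background 2. LIF was at 54.1% and 54.8% of its control, NFKB2 at 68.8% and 58.8%, and REL at 80.4% and 73.9%, against 102%, 115% and 242% in background 2. IL11 was lower in both backgrounds, with 331 reads in the control, against 89 and 60 in the siWFDC21P-1 libraries of background 1, and 117 and 48 in background 2. IL24 had 38 reads in siNC replicate 1 and 4 and 6 in the siWFDC21P-1 libraries. IL6 was at 98.0% and 122% of the control in background 1, on 96 control reads and with intervals that span the control level, and at 41.9% in background 2, on 24 and 10 reads. CXCL8 stood at 15, 3 and 5 reads in background 1, and at 300 and 462 in background 2.

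**Figure D4:**
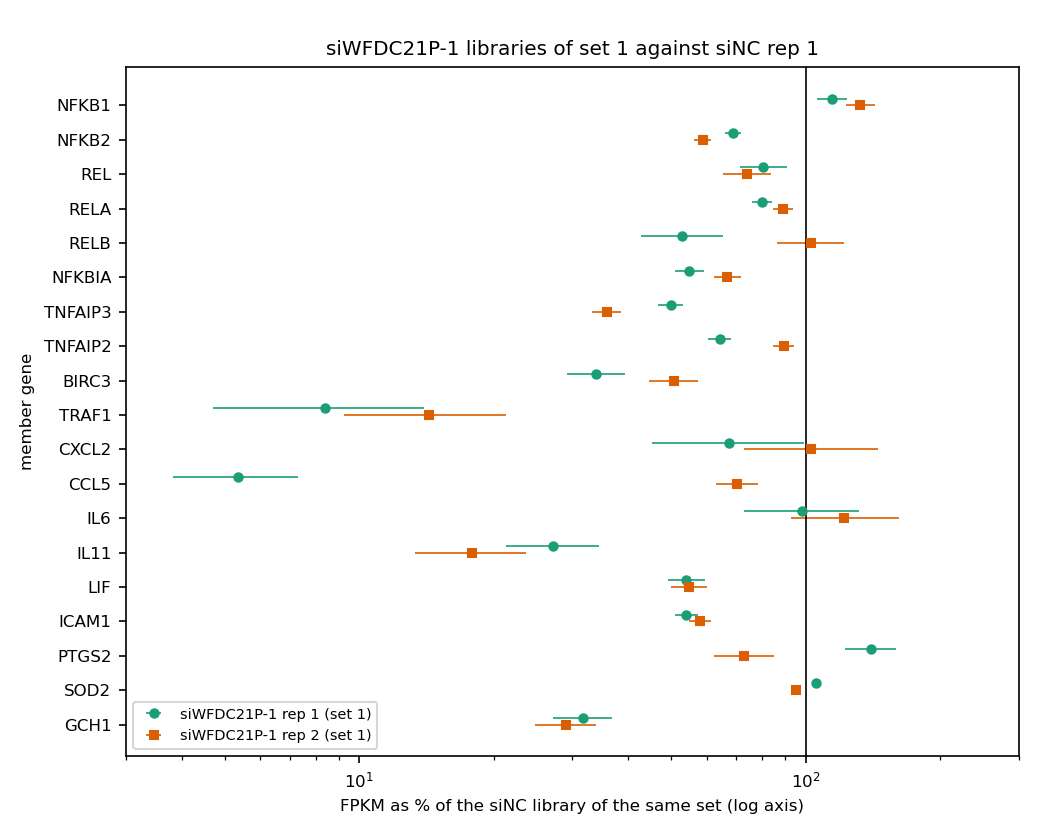
Points give the FPKM of siWFDC21P-1 replicates 1 and 2 as a percentage of siNC replicate 1, on a log axis, for the 19 genes of the list with at least 1 FPKM in that control, and bars are 95% intervals that cover counting error only. IL11, GCH1 and TRAF1 lie below 35% of the control in both libraries, and CCL5 is at 5.33% in replicate 1 and 70.2% in replicate 2.

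The comparison of siWFDC21P-1 and siWFDC21P-2 is also one of backgrounds, and the effects of siRNA and background cannot be told apart. It is also one of naming style and depth, which go with background 3. Of the 26 tested genes, 6 were below the control in all 6 siRNA libraries (RELA, NFKBIA, TNFAIP2, CCL5, ICAM1 and GCH1), against 7.92% of all tested genes. They are 6 of the 8 genes below with siWFDC21P-1 and of the 18 below with siWFDC21P-2. Tested genes without a read in background 1 or in background 2 could not have this pattern. Of the genes not tested, IL11 and IL24 had this pattern too, on few reads in some backgrounds. The siWFDC21P-1 readings used siNC replicates 1 and 2 and the siWFDC21P-2 readings used siNC replicate 3. CCL2 differed in its readings, at 35%, 56.9% and 91.6% of the controls with siWFDC21P-1 and at 125%, 318% and 439% with siWFDC21P-2, and this difference was not tested. The 35% and 56.9% rest on low levels, 0.313 to 0.895 FPKM in background 1. Its log2 fold change was -0.29 ± 0.46 with siWFDC21P-1 (limma adjusted p = 0.825) and 1.29 ± 0.57 with siWFDC21P-2 (limma adjusted p = 0.756).

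The rest of the pathway was followed through 76 further genes in 5 lists, of which 59 were tested. None passed with siWFDC21P-1 (limma adjusted p of 0.209 or more) or siWFDC21P-2 (0.756 or more). With siWFDC21P-1, 19 of the 59 were below the control in all 3 libraries and 12 above, against 20.7% and 27.9% of all tested genes. Their median log2 fold change was -0.15. With siWFDC21P-2 the 17 genes of the IKK complex and upstream adaptors had 3 members below the control in all 3 libraries and 3 above (median log2 fold change 0.07). For each list with siWFDC21P-2, the shares of all tested genes to set beside the counts are 26.0% below and 26.9% above. TAB1, a partner of the kinase TAK1, was at 5.69 FPKM in siNC library 3 versus 6.75, 9.11 and 9.59 with siWFDC21P-2. TRAF3, an adaptor that restrains the non-canonical pathway, was at 5.38 FPKM and then at 7.07, 7.77 and 10.5. Of 11 receptor genes tested, 1 was below in all 3 libraries and 5 above, among them LTBR, the lymphotoxin beta receptor (9.43 FPKM in the control, 12.8 to 15.6 with siWFDC21P-2), and TNFRSF1A, the main TNF receptor (29.7 FPKM and 34.7 to 40.6). With siWFDC21P-1 TNFRSF1A read lower, at 70.0 FPKM in siNC replicate 1 against 26.0 and 48.6, and at 19.3 against 15.7 in background 2.

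Over all 59, 23 were below the control in all 3 siWFDC21P-2 libraries and 13 above, against 26.0% and 26.9% of all tested genes, with a median log2 fold change of -0.05. Of 11 further inhibitors 7 were below the control in all 3 libraries and 1 above, of 12 further targets 6 were below and 2 above, and of 8 partner transcription factors 6 were below and 2 above. IER3, an early response gene, was at 189 FPKM in siNC library 3 versus 154, 67.9 and 79.1 with siWFDC21P-2. It also read lower with siWFDC21P-1, at 72.7 FPKM against 33.6 and 29.9 in background 1 and at 126 against 53.6 in background 2 (log2 fold change -1.19 ± 0.33, limma adjusted p = 0.209). IRF1, an interferon regulatory factor, was at 7.11 FPKM in siNC library 3 versus 4.77 to 5.35 with siWFDC21P-2. JUNB, an AP-1 subunit, was at 62.7 FPKM and then at 52.1, 42.6 and 41.2, and CEBPD, a C/EBP factor, at 52.6 and then at 79.2, 58.2 and 64.0. Of the inhibitors, OTULIN, a deubiquitinase of linear chains, read 7.95 FPKM in siNC replicate 3 and 7.31 to 7.89 with siWFDC21P-2. With siWFDC21P-1 it read 74.2%, 67.2% and 83.2% of the controls. NFKBIB, which encodes IkB-beta, read 10.8 FPKM and 7.79 to 10.3 with siWFDC21P-2, and 239%, 94.8% and 256% of the controls with siWFDC21P-1. JUNB was at 30.4%, 66.0% and 66.4%, and CEBPD at 182%, 529% and 154%, of the controls with siWFDC21P-1. Without replicate 1, 5 of the 59 passed (limma), near the 6.93% of all tested genes, with IER3, ATF3, FOS and ZFP36 lower and SDC4 higher.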

How the data were processed

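The authors deposited FPKM values per Ensembl gene. The submitters' processing notes name hg38, HISAT2 2.1.0, Bowtie2 2.2.3 and HTSeq 0.6.0, without roles. The annotation and the strand setting are not given in the sources used here. Symbols came from GENCODE 29 and a table of Ensembl names. Whole reads were recovered from each FPKM value, the GENCODE 29 exon length and the denominator that makes low values whole. Of values up to 10 reads, 96.4 to 96.9% came out within 0.02 of a whole number. For REL and CCL20 another length, the same for both table styles, was found. Ratios carry exact binomial intervals (Clopper-Pearson, 95%, counting error only).

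Backgrounds were found by average-linkage clustering of 12929 genes on 1 minus Pearson r, at a height of 0.15. limma 3.58.1 (R 4.3.3) was fitted to log2(FPKM + 1) of the 13014 genes averaging 1 FPKM or more, with siRNA and background as terms, trended variances and Benjamini-Hochberg adjustment at 0.05, so that fold changes of low genes are understated. siWFDC21P-2 was thereby compared with siNC replicate 3 alone, so no spread between controls of background 3 enters its SE. The method was tested on simulated data. Each simulated gene had the same spread in all backgrounds, so a spread that differs between backgrounds was not covered.

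Members and lists were chosen with earlier results of these data known. Fitted values are given, for each siRNA, for the 5 genes of the list with the smallest p, those of other members by library, and for each further list the 2 genes with the smallest p are named. CXCL8 among the promoters, the genes called without siWFDC21P-2 replicate 1 and the members singled out by their readings were named after their values were seen. Alternatives covered the model terms, pseudocount, filter, scaling, recovered reads (limma-voom) and each library left out.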

Additional observations from a re-analysis of the deposited data

Results flagged for a closer look

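In 6 of 26 tested genes of the list both siWFDC21P-1 libraries of background 1 lay below siNC replicate 1, and the siWFDC21P-1 library of background 2 lay above siNC replicate 2. Over all tested genes, 22.8% had opposite signs in these backgrounds and 11.9% had them in this direction. Genes of the list without a read in background 1 or in background 2 could not have opposite signs. LIF stood almost level in background 2, and CXCL8 had 15, 3 and 5 reads in background 1. The log2 difference in background 2, on the log2(FPKM + 1) scale, was 0.33 for BIRC3, 0.18 for NFKB2, 0.12 for TNFAIP3, 0.01 for LIF, 0.69 for REL and 0.54 for CXCL8. The differences between backgrounds were not tested, since background 2 holds 1 library of each kind.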

How the results depend on the processing

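For siWFDC21P-1, 3 genes of all passed, and 0 with the naming style in place of the background, with no background term, with the replicate block beside the background, with no filter or with median-of-ratios scaling, 1 with limma-voom and 26 at a mean of at least 5 FPKM. With each library left out in turn the count was 0 to 153. No gene of the list passed in any of these fits. For siWFDC21P-2, 0 of all genes passed, 17 did with no filter, and 0 to 902 did with a library left out, of them 0 to 7 of the list (7 without siWFDC21P-2 replicate 1). The fit without siNC replicate 3 could not be made for siWFDC21P-2. Genes of the list with all 3 siWFDC21P-2 libraries below the control numbered 11 of those with at least 5 FPKM, in place of 18. For siWFDC21P-1, genes below numbered 8 to 14 and genes above 2 to 4 with a library left out, and 1 gene was above at 5 FPKM or more. For the filter at 5 FPKM and the counts with a library left out, the share of all genes was not taken. These counts therefore show only how the numbers move, and nothing particular to the list. Fold changes turned sign for TNFAIP2 with siWFDC21P-1 (0.078), IL6 (0.10) and CXCL8 (2.53) with siWFDC21P-2, all with no background term, and for TNFAIP3 with siWFDC21P-1 without siNC replicate 1 (0.12, with -1.14 without siNC replicate 2 as the other end of the range); the first 3 then compare different backgrounds. Deviations of same-numbered replicates from their group means gave r from -0.68 to 0.67. The highest value was for siNC and siWFDC21P-1 replicates 1, both of background 1. The lowest was for their replicates 2, of different backgrounds. Since the deviations carry the backgrounds, this check cannot decide on pairing, and the replicate numbers were not taken to pair the libraries. Depth limits the genes with under about 10 reads.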
